A study of Mus musculus with 10 samples.

Results

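Hepatocytes at ZT12 were compared with hepatocytes at ZT0. Zeitgeber time (ZT) is the hour of the light-dark cycle, by convention with lights on at ZT0 and lights off at ZT12, so the comparison sets the start of the dark phase against the start of the light phase. The members were the 3 libraries titled ZT12 (A, B and C) and the 3 titled ZT0 (A, B and C), which are 6 of the 10 libraries of the series and hold 11054 of its 18378 cells. All 6 libraries came from male C57BL/6 mice aged 3 months with free access to regular chow, anaesthetised with ketamine and xylazine. Hepatocytes were released by collagenase perfusion, enriched on a Percoll gradient and made into libraries with the 10x Chromium 3' kit, version 2. The labels name no genetic change or drug beyond the anaesthetic, and give neither the number of mice behind a library nor whether libraries came from separate mice, so p-values measure the spread between these libraries.

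Most liver cells carry a circadian clock, a loop in which the activators BMAL1 (encoded by Arntl), CLOCK and NPAS2 switch on genes for their own repressors, the PER and CRY proteins. The repressors REV-ERBα and REV-ERBβ, encoded by Nr1d1 and Nr1d2, close a further loop on the activators, and factors such as DBP, TEF and HLF pass the rhythm on to other genes. Mice eat mainly in the dark, and liver glucose, lipid, sterol and bile acid metabolism are known to follow the clock, feeding and the daily rhythm of glucocorticoid hormone.

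The 6 libraries held 710 to 2860 cells and 1454623 to 7144803 UMIs (counted molecules) each, with 1588 to 2662 UMIs in the median cell. ZT12A and ZT12C were the shallowest libraries, at 1454623 and 1991992 UMIs, so their values carry the most counting error. All 10 of the hepatocyte markers, Alb and Apoa1 among them, were detected in every library, and their summed level was 62111 to 82711 CPM (UMIs put on one common total per library, here without TMM normalisation) at ZT0 and 45938 to 85073 CPM at ZT12. Summed markers of other cells stayed far lower at ZT0 and at ZT12: 11.7 to 20.8 and 4.12 to 19.6 CPM for endothelial cells, 3.27 to 11.3 and 0 to 8.96 CPM for macrophages, 0.446 to 1.4 and 0.502 to 2.66 CPM for lymphocytes, and 0 to 0.169 and 0 to 8.26 CPM for neutrophils. They were 28.9 to 122.5 and 29.5 to 46.1 CPM for cholangiocytes and 78.9 to 88.3 and 72.2 to 107.9 CPM for erythroid cells. Mitochondrially encoded genes took 12.9% to 24.3% of UMIs, with both extremes at ZT12 (C and A). None of the landmark genes of position in the lobule was called between the times. Over genes, libraries with the same letter deviated together from their time's mean (r = 0.24 for A, 0.42 for B and 0.48 for C), while libraries with other letters had r from -0.31 to -0.09. Deviations from a time's mean cancel out within each gene, so the negative values follow from the positive ones and are not separate support. The letter was therefore kept as a pair in the test.

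UMIs were summed over all cells of a library, so that fewer cells expressing a gene and less RNA per cell cannot be told apart. By edgeR's quasi-likelihood test with the letter as a pair, 421 of 8886 genes (4.74%) differed between the times at a Benjamini-Hochberg adjusted p under 0.05. Of these, 211 (2.37% of genes tested) rose and 210 (2.36%) fell at ZT12. The rises had a median of 2.26-fold and the falls of 2.41-fold, with 33 rises and 32 falls of at least 4-fold. All 3 pairs moved in the called direction for 209 of the 211 rises and all 210 falls, and the 3 ZT12 libraries lay wholly outside the 3 ZT0 libraries for 183 and 191 of them. Over all genes such a gap was found for 1509 (17.0%), upward for 8.68% and downward for 8.31%. Without the pairing, the same test called 184 genes (2.07%), all of them among the 421. The number also depended on the C pair. Without ZT0C 142 genes were called and without ZT12C 142, against 571 to 621 when another library was left out. With the letter as a pair, a library whose partner is left out no longer informs the time difference. Leaving out either library of a letter therefore rests on the same remaining pairs, and these fits are not separate checks. In what follows, without either C library means that ZT0C and ZT12C were left out in turn, and likewise for A and B. A gene below is called changed by the paired test, and the paired log2 fold change (ZT12 over ZT0) is given with its standard error (SE). Counts of called members of a gene list are to be read beside the shares of all genes tested, 2.37% higher and 2.36% lower. Values per library are CPM in the order A, B, C, from here on of the TMM-normalised library total.

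Clock genes were examined by their place in the loop. All 7 of the tested activators and their direct regulators were measured, and 2 rose and 3 fell. Among 11 tested repressors and modifiers of repressors, 5 rose and 1 fell. Promoter sequence is shown for the called clock and output genes with one of 3 clock motifs in the 250 bases before a RefSeq transcription start: the E-box CACGTG bound by the activators, the D-box TTATGTAA bound by DBP, TEF, HLF and NFIL3, and the ROR element bound by ROR and REV-ERB proteins, each read on both strands. Of 23 called genes, 22 had a window, with 29 windows in all, and 5 genes held a motif in any of theirs: 4 the E-box, 1 the D-box and 0 the ROR element. Among all 27025 genes with a window, counted the same way, 6.86% held the E-box, 0.977% the D-box and 0.211% the ROR element. Per window the shares were 6.02%, 0.819% and 0.177% of 32851. Sequences run 5′ to 3′ on the gene's strand up to the base before the start (RefSeq, GRCm38.p6), with the motifs in capitals.
Ciart promoter, chr3:95882229-95882478, minus strand: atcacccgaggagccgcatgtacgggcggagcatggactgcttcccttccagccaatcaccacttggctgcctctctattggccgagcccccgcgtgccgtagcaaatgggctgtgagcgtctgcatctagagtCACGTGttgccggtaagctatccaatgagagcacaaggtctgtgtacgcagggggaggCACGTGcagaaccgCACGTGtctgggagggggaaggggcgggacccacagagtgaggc
Per3 promoter, chr4:151044666-151044915, minus strand: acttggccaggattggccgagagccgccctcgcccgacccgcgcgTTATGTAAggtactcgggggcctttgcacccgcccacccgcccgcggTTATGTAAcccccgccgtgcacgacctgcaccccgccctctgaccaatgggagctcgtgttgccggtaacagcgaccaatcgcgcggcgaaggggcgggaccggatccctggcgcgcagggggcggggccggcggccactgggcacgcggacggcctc
Per1 promoter, chr11:69098699-69098948, plus strand: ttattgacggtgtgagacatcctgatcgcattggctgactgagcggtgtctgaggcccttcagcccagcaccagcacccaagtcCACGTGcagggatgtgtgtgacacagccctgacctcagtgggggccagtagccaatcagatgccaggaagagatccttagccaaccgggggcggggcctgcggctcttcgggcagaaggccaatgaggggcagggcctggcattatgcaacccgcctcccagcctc
Tef promoter, chr15:81802423-81802672, plus strand: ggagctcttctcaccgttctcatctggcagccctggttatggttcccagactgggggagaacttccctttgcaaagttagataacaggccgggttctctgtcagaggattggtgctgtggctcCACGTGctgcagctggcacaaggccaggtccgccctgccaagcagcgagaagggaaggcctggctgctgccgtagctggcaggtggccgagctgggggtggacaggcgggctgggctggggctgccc
Cry1 promoter, chr10:85185055-85185304, minus strand: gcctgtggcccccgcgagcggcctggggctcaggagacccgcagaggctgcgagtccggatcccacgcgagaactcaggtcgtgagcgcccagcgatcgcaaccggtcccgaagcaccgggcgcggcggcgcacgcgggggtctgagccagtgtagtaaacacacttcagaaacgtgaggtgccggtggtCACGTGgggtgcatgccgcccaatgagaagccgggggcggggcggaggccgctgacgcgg
Ciart held 3 E-boxes, whose first bases lay 116, 58 and 44 bases before the start. Per3 held 2 D-boxes, 205 and 158 bases before it. Per1, Tef and Cry1 each held 1 E-box in the window shown, at 166, 127 and 60 bases. A further window of Tef, chr15:81811164-81811413 on the plus strand, which is not printed, also held 1 E-box, 138 bases before its start. Of these 5 genes Cry1 fell at ZT12 and the other four rose. A match of letters is a description of the sequence and was not tested for binding.

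The activators were lower at ZT12. Arntl measured 21.6, 14.2 and 29.6 CPM at ZT0 and 3.37, 1.11 and 0.883 CPM at ZT12, a fall of 13-fold (log2 -3.70 ± 0.35 (SE), edgeR adjusted p = 0.00047). Npas2, whose product can stand in for CLOCK, measured 8.13, 7.16 and 12.1 CPM at ZT0 and had no UMI in any ZT12 library. Set against a floor of 3 UMIs over the ZT12 group, it was at least 33.2-fold lower (edgeR adjusted p = 0.0014). Clock measured 46.8, 47 and 48.6 CPM at ZT0 and 31, 18.5 and 16.8 CPM at ZT12 (log2 -1.17 ± 0.22 (SE), edgeR adjusted p = 0.014). The ranges at both times did not overlap for these 3 genes, and Clock fell the least. Rora, which encodes an activator of Arntl, was not called, at log2 -0.19 ± 0.19. Without either C library Clock missed the threshold (edgeR adjusted p = 0.16 to 0.17).

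REV-ERB genes were higher at ZT12, to unequal degrees. Nr1d2 measured 7.53, 8.25 and 6.29 CPM at ZT0 and 86.2, 68.8 and 66.7 CPM at ZT12, a rise of 9.92-fold (edgeR adjusted p = 3.4e-05), and stood at 57.9 CPM at ZT6 (mean of 2 libraries). Nr1d1 measured only 0.793, 2.02 and 2.48 CPM at ZT0 and 1.35, 7.1 and 8.83 CPM at ZT12 (log2 1.70 ± 0.34 (SE), edgeR adjusted p = 0.019). Its groups overlapped, because ZT12A lay below 2 of the ZT0 libraries, and its level at ZT6 was 31.5 CPM, above every library of either time compared. The call of Nr1d1 was lost without the pairing (edgeR adjusted p = 0.13) and without a B or C library (edgeR adjusted p = 0.06 to 0.062 for B and 0.17 to 0.18 for C).

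Most of the repressor genes that were called rose. Ciart, which encodes a repressor of the activator complex, measured 0.793, 0.623 and 0 CPM at ZT0 and 22.2, 11 and 19 CPM at ZT12 (log2 5.12 ± 0.48 (SE), edgeR adjusted p = 0.00045), and its ZT0 values rest on few UMIs. Per3 measured 1.98, 2.65 and 1.99 CPM and 38.4, 24.7 and 27.8 CPM (log2 3.70 ± 0.26 (SE)), and Per1, which also responds to glucocorticoids, measured 5.75, 2.02 and 3.14 CPM and 20.2, 17.4 and 25.2 CPM (log2 2.62 ± 0.29 (SE)). For these 3 genes each ZT12 library was above all ZT0 libraries. Per2 was called at log2 1.61 ± 0.30 (SE) with groups that overlapped, since ZT0A was above ZT12B (17, 3.89 and 5.79 CPM against 27.6, 15.7 and 27.4 CPM). Of the cryptochromes, Cry2 rose (log2 1.11 ± 0.23 (SE)) and Cry1 fell (log2 -1.07 ± 0.21 (SE)), so that Cry1 was 45, 29.7 and 45.8 CPM at ZT0 and 30.3, 11.8 and 19 CPM at ZT12. Csnk1d, a modifier of repressor stability, was not called (log2 -0.15 ± 0.18), nor was Bhlhe40 (log2 -0.23 ± 0.20). Per2, Cry1 and Cry2 missed the threshold without the pairing (edgeR adjusted p = 0.069 to 0.21) and without either C library (edgeR adjusted p = 0.10 to 0.26).

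**Figure D1:**
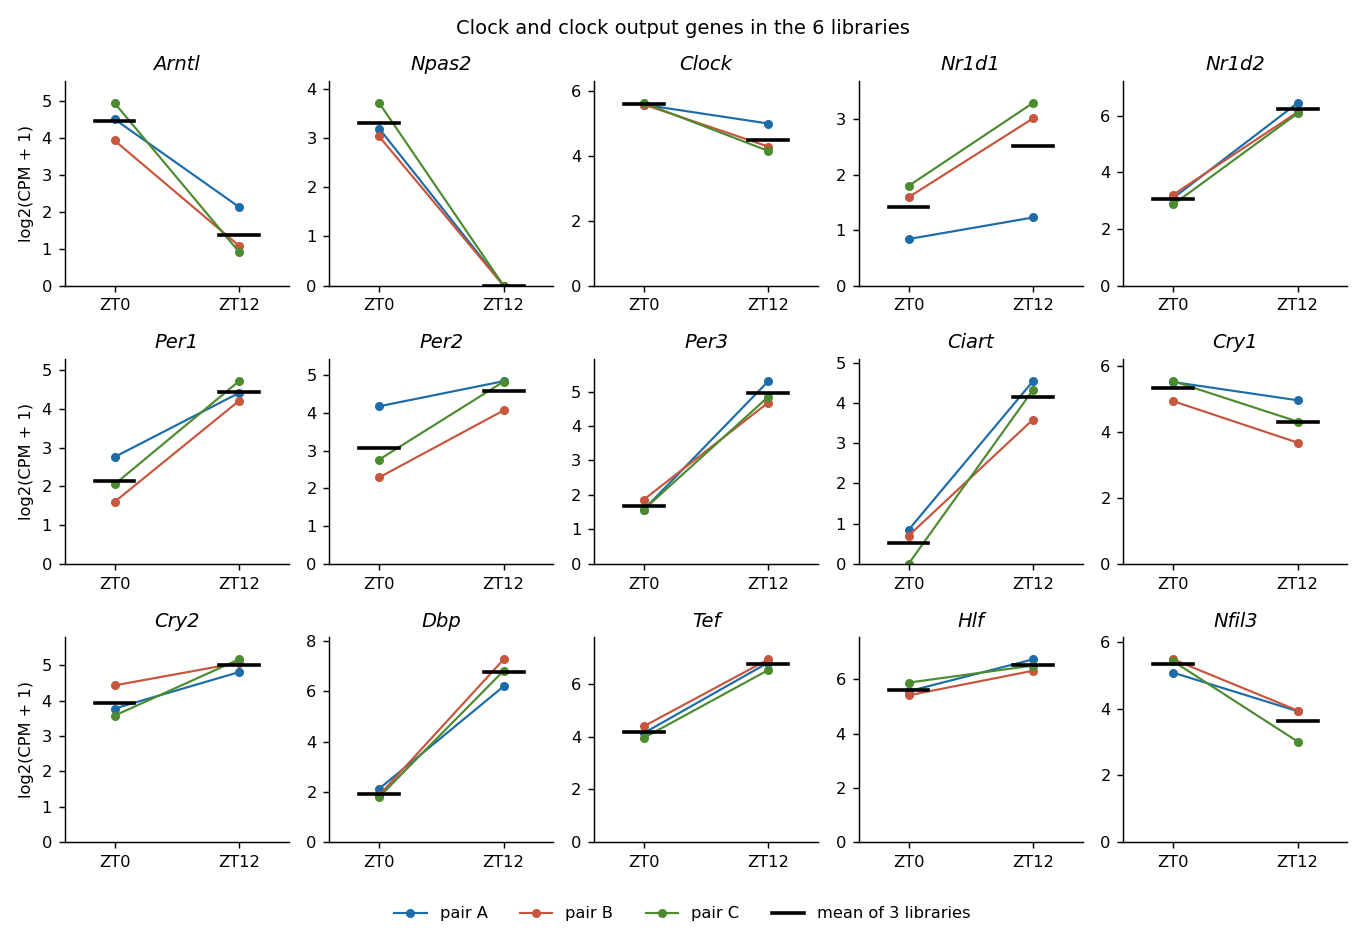
Level of 15 clock and clock output genes in each library as log2(CPM + 1), ZT0 on the left and ZT12 on the right of each panel; points are libraries, coloured lines join libraries of the same letter, and black bars are means of 3 libraries. Lines of all 3 letters fall for Arntl, Npas2, Clock, Cry1 and Nfil3 and rise for the other genes, steeply for Dbp, Ciart and Per3.

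Of 18 tested clock output genes 9 rose and 3 fell, with a list median of log2 0.69 against -0.00 over all genes tested. Factors that bind the D-box rose together: Tef measured 16.6, 20.1 and 14.6 CPM at ZT0 and 112, 122 and 91.9 CPM at ZT12 (log2 2.66 ± 0.17 (SE), edgeR adjusted p = 4.3e-05), and Hlf rose less (log2 0.91 ± 0.18 (SE), edgeR adjusted p = 0.017). Nfil3, which encodes a repressor at the same motif, fell from 32.7, 43.4 and 41.7 CPM to 14.1, 14.3 and 7.07 CPM (log2 -1.75 ± 0.25 (SE), edgeR adjusted p = 0.0043), opposite in direction to Tef in every pair. Dbp itself rose by 39.3-fold, from 3.37, 2.65 and 2.48 CPM to 72.8, 154 and 113 CPM, with no overlap. Usp2, a deubiquitinase, rose from 8.72, 3.42 and 5.29 CPM to 68.7, 86.9 and 93.2 CPM (edgeR adjusted p = 0.00011), and Rgs16, a brake on G protein signals, from 1.98, 12.6 and 2.15 CPM to 112, 33 and 114 CPM (edgeR adjusted p = 0.015). Neither gene had overlapping groups. Noct, a deadenylase-like protein gene under clock control, rose from 25.6, 4.05 and 5.62 CPM to 97, 56.7 and 76 CPM (log2 3.06 ± 0.35 (SE)). The cell cycle inhibitor gene Cdkn1a, a REV-ERB target, fell from 27.6, 16.3 and 17.9 CPM to 4.72, 2.37 and 3.53 CPM (log2 -2.59 ± 0.25 (SE), edgeR adjusted p = 0.0005), and Tars, for a transfer RNA synthetase, fell to a smaller degree (log2 -1.03 ± 0.19 (SE)). Hlf and Tars were lost without the pairing (edgeR adjusted p = 0.059 to 0.073) and without either C library (edgeR adjusted p = 0.097 to 0.18).

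Genes known to be induced by glucocorticoids were higher at ZT12 where called, with 1 exception. Of 28 tested, 11 rose and 1 fell, with a median of log2 0.65. The metallothionein genes, whose products bind zinc and copper, had the largest rises. Mt2 measured 5.95, 3.89 and 15.7 CPM at ZT0 and 150.2, 83.4 and 51.2 CPM at ZT12 (log2 3.50 ± 0.49 (SE), edgeR adjusted p = 0.0037). Mt1 measured 45, 26 and 60.9 CPM and 604, 405 and 185 CPM (log2 3.12 ± 0.42 (SE), edgeR adjusted p = 0.003). Both genes were highest in ZT12A and, within ZT12, lowest in ZT12C, and every ZT12 library was above every ZT0 library. At ZT18 their levels were 7.01 CPM for Mt1 and 0.73 CPM for Mt2 (means of 2 libraries), below their means at ZT0. Fkbp5, the feedback chaperone of the glucocorticoid receptor, measured 8.32, 24.3 and 6.95 CPM and 70.1, 53.8 and 55.2 CPM (log2 2.28 ± 0.35 (SE), edgeR adjusted p = 0.0059), and ZT0B was the highest of the ZT0 libraries.

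Other members of the glucocorticoid list moved with smaller folds than Mt1 and Mt2. Zbtb16, a transcription factor gene, rose from 2.58, 5.29 and 4.47 CPM to 24.3, 16.3 and 11 CPM (log2 1.95 ± 0.33 (SE), edgeR adjusted p = 0.01). St3gal5, for the synthase of ganglioside GM3, rose from 43.2, 40.9 and 51.3 CPM to 189, 221 and 306 CPM (log2 2.38 ± 0.18 (SE), edgeR adjusted p = 0.00011), with no overlap. Cebpb, a liver transcription factor gene, was 128, 81.4 and 381 CPM at ZT0 and 274, 168 and 852 CPM at ZT12 (log2 1.10 ± 0.17 (SE), edgeR adjusted p = 0.0063). Each pair rose for Cebpb, but both C libraries were far above the others, so the groups overlapped. Its call was lost without the pairing (edgeR adjusted p = 0.53) and without either C library (edgeR adjusted p = 0.12 to 0.13). Tdo2, Tat and Errfi1, also listed, had log2 fold changes of 0.70 ± 0.19, 0.58 ± 0.18 and 0.68 ± 0.18 and were not called. Cdkn1a, the listed gene that fell, is also the REV-ERB target given above, and Per1, Por, Pck1, Sds and Angptl4 are shared with other lists.

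Zinc transport did not move as a group. Of 7 tested genes for metallothioneins and zinc transport, the 2 metallothioneins rose and Slc30a10 fell. Slc30a10, a transporter that chiefly exports manganese, measured 57.3, 59.5 and 50.0 CPM at ZT0 and 21.6, 16.3 and 9.72 CPM at ZT12 (log2 -1.86 ± 0.22 (SE), edgeR adjusted p = 0.0014). The zinc exporter gene Slc30a1 and Mtf1, the metal-responsive activator of metallothioneins, were at log2 -0.12 ± 0.17 and 0.10 ± 0.23 and were not called.

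Glucose production genes were higher at ZT12 where they were called: 8 of 19 tested gluconeogenesis genes rose and 0 fell. The median of the list was log2 0.30. Pck1, the key enzyme that starts glucose synthesis from oxaloacetate, measured 1099, 779 and 994 CPM at ZT0 and 3494, 2742 and 2325 CPM at ZT12, a rise of 2.97-fold (log2 1.57 ± 0.21 (SE), edgeR adjusted p = 0.0026). All ZT12 libraries were above all ZT0 libraries. Genes of its regulators rose too: Foxo1 (log2 1.26 ± 0.19 (SE)), Ppargc1a (log2 1.21 ± 0.21 (SE)) and Foxo3 (log2 0.96 ± 0.19 (SE)). Slc37a4, for the transporter that brings glucose 6-phosphate to its phosphatase, rose from 95.1, 83.9 and 62.7 CPM to 154, 170.4 and 168 CPM (log2 1.05 ± 0.19 (SE)). The catalytic subunit gene G6pc was not called (log2 -0.19 ± 0.19), nor was Fbp1 (log2 0.14 ± 0.24). Enzymes that feed amino acid carbon into the pathway rose, among them Sds (log2 1.49 ± 0.25 (SE)), Got1 (log2 0.98 ± 0.21 (SE)) and Gpt2 (log2 0.92 ± 0.17 (SE)). Without the pairing Sds, Got1, Gpt2 and Foxo3 missed the threshold (edgeR adjusted p = 0.06 to 0.09). Without either C library Pck1 alone of the 8 stayed called, and the other seven had an edgeR adjusted p of 0.078 to 0.33.

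Glucose uptake, glycolysis and glycogen genes changed one at a time. Of 23 tested glycolysis and fructose genes 3 rose and 0 fell, with a list median of log2 0.09. Pfkfb3, whose product makes the main activator of phosphofructokinase, measured 3.77, 2.18 and 3.97 CPM at ZT0 and 25.6, 22.3 and 65.8 CPM at ZT12 (log2 3.46 ± 0.27 (SE), edgeR adjusted p = 0.00013), with ZT12C the highest. Slc2a2, for the hepatocyte glucose transporter GLUT2, rose from 212, 142 and 164 CPM to 513, 310.5 and 433 CPM (log2 1.27 ± 0.17 (SE), edgeR adjusted p = 0.0032). Ldha, Khk and Gapdh were not called (log2 -0.05 ± 0.19, -0.24 ± 0.18 and -0.16 ± 0.24). Of 21 tested glycogen genes 2 rose and 1 fell. Gys2, the liver glycogen synthase, rose from 33.1, 33.5 and 52.4 CPM to 64, 137 and 134 CPM (log2 1.47 ± 0.22 (SE), edgeR adjusted p = 0.0052), and Ugp2, which makes the UDP-glucose that it uses, rose as well (log2 1.04 ± 0.19 (SE)). Ppp1r3c, for a glycogen-targeting subunit of protein phosphatase 1, went the other way, from 155, 149.8 and 117 CPM to 72.1, 11.7 and 42 CPM (log2 -2.06 ± 0.42 (SE), edgeR adjusted p = 0.021). The phosphorylase gene Pygl was not called (log2 -0.30 ± 0.18). Ugp2 and Ppp1r3c were lost without the pairing (edgeR adjusted p = 0.084 to 0.092), and Slc2a2 and Ugp2 without either C library (edgeR adjusted p = 0.073 to 0.087).

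**Figure D2:**
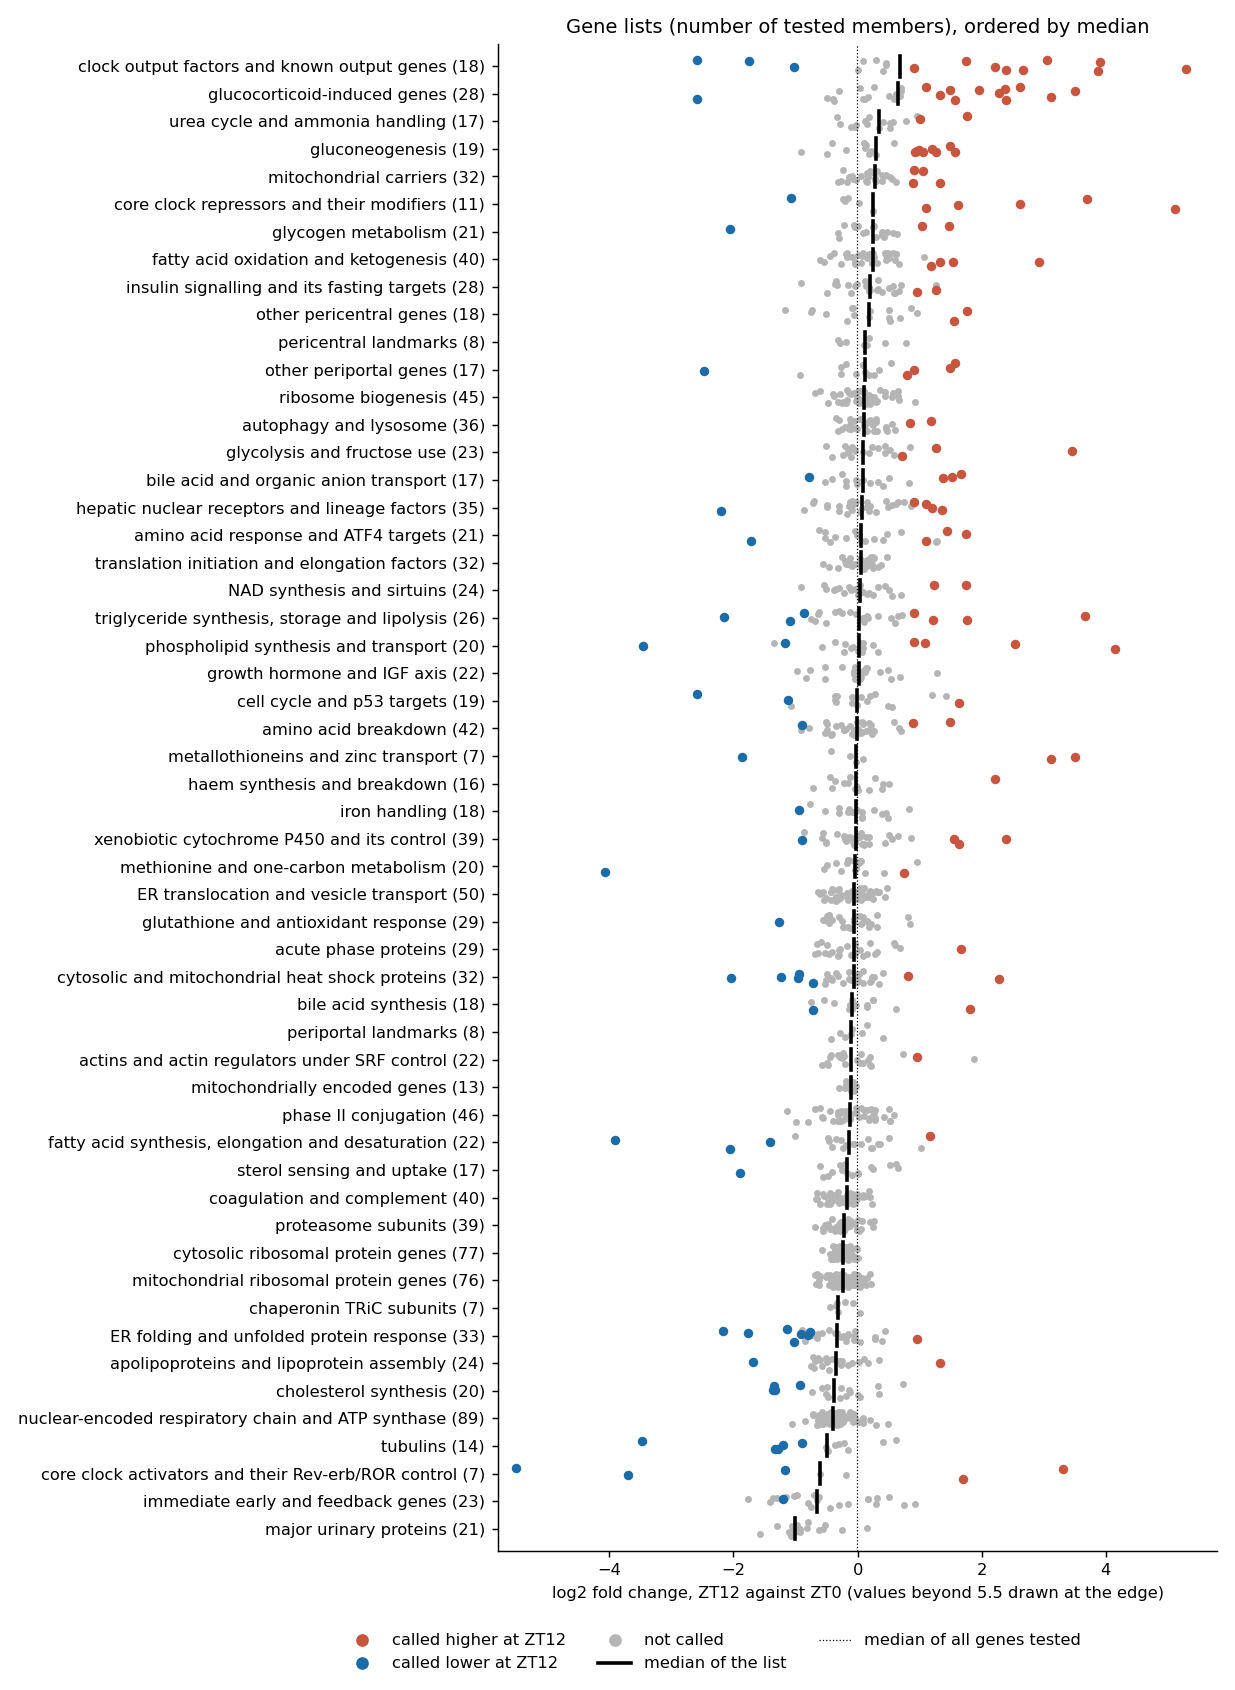
Paired log2 fold change (ZT12 over ZT0) of the members of each gene list with at least 7 tested genes, lists ordered by their median (black bar); red points are called higher at ZT12, blue points called lower, grey points not called, and the dotted line is the median of all 8886 genes. Calls higher at ZT12 prevail among clock output, glucocorticoid-induced and gluconeogenesis genes, calls lower at ZT12 among tubulin, cholesterol synthesis and ER folding genes.

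Among 22 tested fatty acid synthesis genes 3 fell and 1 rose, where 2.36% and 2.37% of all genes tested did. The balance depended on the processing: 3 fell and 3 rose with library size alone in place of TMM. DESeq2 called 3 lower and 2 higher, and edgeR without the pairing 1 lower and 0 higher. Elovl3, an elongase of saturated fatty acids, measured 446, 343 and 753 CPM at ZT0 and 29.6, 19.1 and 59.6 CPM at ZT12 (edgeR adjusted p = 1.8e-05). Elovl6, which extends palmitate, rose instead, from 53.5, 72.7 and 41.9 CPM to 171, 94.3 and 117 CPM (log2 1.17 ± 0.25 (SE), edgeR adjusted p = 0.027), and neither elongase had overlapping groups. Acacb, the acetyl-CoA carboxylase whose product restrains fatty acid entry into mitochondria, fell from 50.5, 122 and 65.5 CPM to 34.4, 20.6 and 35.3 CPM (log2 -1.40 ± 0.34 (SE), edgeR adjusted p = 0.049). Pnpla3, a lipid droplet enzyme gene at low level, fell too (log2 -2.05 ± 0.43 (SE)). The desaturase gene Scd1 was not called (log2 -0.05 ± 0.23), nor was Thrsp (log2 1.02 ± 0.27). Elovl6, Acacb and Pnpla3 missed the threshold without the pairing (edgeR adjusted p = 0.058 to 0.27) and without either C library (edgeR adjusted p = 0.063 to 0.24), and Acacb also without either B library (edgeR adjusted p = 0.069 to 0.077).

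Genes of triglyceride handling moved in both directions, with 4 of 26 tested higher, 3 lower and a median of log2 0.03. The lipins turn phosphatidic acid into diacylglycerol and also act in the nucleus. Lpin1 measured 46.4, 43.3 and 48.6 CPM at ZT0 and 808, 416 and 588 CPM at ZT12, 12.6-fold higher (edgeR adjusted p = 3.6e-05), while its relative Lpin2 rose from 83.4, 122 and 106 CPM to 314, 199.8 and 221 CPM (log2 1.22 ± 0.23 (SE)). Genes acting on the lipase that opens triglyceride stores fell or rose according to member. Pnpla2, the lipase ATGL itself, rose (log2 0.91 ± 0.21 (SE)), its inhibitor gene G0s2 fell from 358, 94.6 and 100.2 CPM to 39.7, 32.9 and 27.4 CPM (log2 -2.15 ± 0.29 (SE), edgeR adjusted p = 0.003), and its activator gene Abhd5 fell (log2 -0.87 ± 0.20 (SE)). Of the lipid droplet coats, Plin2 fell from 256, 294 and 310.0 CPM to 115, 137 and 155 CPM (log2 -1.08 ± 0.17 (SE)) and Plin4, near the detection limit, rose (log2 1.76 ± 0.36 (SE)). Dgat2, for the last step of triglyceride synthesis, was not called (log2 0.65 ± 0.19). Lpin1 and G0s2 stayed called in every such fit, whereas Pnpla2, Abhd5 and Plin4 were lost without the pairing (edgeR adjusted p = 0.08 to 0.19), and all of Lpin2, Pnpla2, Abhd5, Plin2 and Plin4 without either C library (edgeR adjusted p = 0.096 to 0.21). Pnpla2 was also lost without either B library (edgeR adjusted p = 0.18) and Plin4 without either A library (edgeR adjusted p = 0.057 to 0.059).

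Phospholipid genes showed a set of changes around choline. Of 20 tested genes, 4 rose and 2 fell. Chka, the kinase that commits choline to phosphatidylcholine, measured 117, 235 and 179.8 CPM at ZT0 and 26.9, 13.8 and 11 CPM at ZT12 (edgeR adjusted p = 0.00076), and the choline transporter gene Slc44a1 fell from 56.7, 63.5 and 56.6 CPM to 26.9, 25.6 and 26.9 CPM (log2 -1.16 ± 0.17 (SE), edgeR adjusted p = 0.0052). Gpcpd1, whose product frees glycerol 3-phosphate and choline from glycerophosphocholine, rose from 24, 31.9 and 34.7 CPM to 243, 87.1 and 252 CPM (log2 2.54 ± 0.32 (SE), edgeR adjusted p = 0.0022). Etnk2, an ethanolamine kinase, rose (log2 1.08 ± 0.18 (SE)), as did Abcb4, which exports phosphatidylcholine into bile (log2 0.91 ± 0.17 (SE)). Mfsd2a, a transporter of lysophosphatidylcholine, rose from 6.94, 2.33 and 3.31 CPM to 76.1, 50.8 and 86.1 CPM (edgeR adjusted p = 4.3e-05). Pemt and Chpt1, the last enzymes of the methylation and choline routes to phosphatidylcholine, were not called (log2 -0.22 ± 0.18 and -0.08 ± 0.20). Etnk2 and Abcb4 were lost without the pairing (edgeR adjusted p = 0.077 to 0.21), and Slc44a1, Etnk2 and Abcb4 without either C library (edgeR adjusted p = 0.061 to 0.17).

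Of 40 tested fatty acid oxidation genes 4 rose and 0 fell, where 2.37% and 2.36% of all genes tested did. The list had a median of log2 0.24. Cpt1a, the gate for long-chain fatty acids into mitochondria, measured 86.6, 101 and 84 CPM at ZT0 and 307, 262 and 227 CPM at ZT12, 2.91-fold higher (log2 1.54 ± 0.18 (SE), edgeR adjusted p = 0.0014). Eci2, for unsaturated fatty acids, rose from 70.2, 71.4 and 85.4 CPM to 127, 203 and 193 CPM (log2 1.19 ± 0.18 (SE)). Acot3, a peroxisomal thioesterase, rose from 0.198, 2.18 and 0.496 CPM to 6.74, 6.41 and 11.9 CPM (log2 2.92 ± 0.55 (SE)), on few UMIs at ZT0. Angptl4, which encodes an inhibitor of lipoprotein lipase, was called at log2 1.33 ± 0.26 (SE) with overlapping groups, as ZT12B lay below ZT0C. Angptl4 missed the threshold without the pairing (edgeR adjusted p = 0.15), and Eci2, Acot3 and Angptl4 without either C library (edgeR adjusted p = 0.084 to 0.20). Angptl8, another secreted regulator of the same lipase, fell from 147, 70.8 and 40.7 CPM to 37.7, 34.3 and 7.51 CPM (log2 -1.69 ± 0.25 (SE), edgeR adjusted p = 0.005), but not without the pairing (edgeR adjusted p = 0.16).

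Cholesterol synthesis genes were lower at ZT12 where called, 4 of 20 tested against 0 higher, with a list median of log2 -0.38. Fdps, which makes farnesyl diphosphate, measured 99.5, 107 and 99.6 CPM at ZT0 and 38.4, 41.8 and 38.4 CPM at ZT12 (log2 -1.37 ± 0.17 (SE), edgeR adjusted p = 0.0017), with no overlap. Pmvk and Mvd, for earlier steps of the pathway, fell to 57.3, 45.7 and 48.6 CPM from 95.1, 186 and 108 CPM (log2 -1.33 ± 0.24 (SE)) and to 10.1, 10.6 and 7.95 CPM from 17.4, 39.5 and 14.6 CPM (log2 -1.35 ± 0.27 (SE)). Lss, further down the pathway, was called at log2 -0.93 ± 0.23 (SE) with groups that overlapped. Hmgcs1 and Sc5d were negative but not called (log2 -0.95 ± 0.27 and -0.57 ± 0.22). Insig2, whose product holds the sterol sensor SCAP in the ER, fell from 497, 505 and 645 CPM to 176, 103 and 178 CPM (log2 -1.89 ± 0.20 (SE), edgeR adjusted p = 0.001), the single call among 17 genes of sterol sensing and uptake. Its relative Insig1 was not called (log2 -0.56 ± 0.29). Mvd and Lss were lost without the pairing (edgeR adjusted p = 0.12 to 0.29) and without either B library (edgeR adjusted p = 0.14 to 0.29), and Pmvk, Mvd and Lss without either C library (edgeR adjusted p = 0.06 to 0.18).

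Cyp7a1, Abcg5 and Abcg8, whose products send cholesterol to bile, rose. The rate-limiting enzyme of bile acid synthesis, Cyp7a1, measured 76.3, 39.7 and 60.7 CPM at ZT0 and 330.1, 95 and 249 CPM at ZT12 (log2 1.81 ± 0.21 (SE), edgeR adjusted p = 0.0014). Cyp8b1, which sets the share of cholic acid, fell (log2 -0.72 ± 0.17 (SE), edgeR adjusted p = 0.042), and they were the only called genes of 18 tested for bile acid synthesis. Abcg5 and Abcg8, which together form the canalicular sterol exporter, both rose: Abcg5 from 11.7, 11.8 and 12.4 CPM to 41.1, 34.1 and 39.8 CPM (log2 1.66 ± 0.19 (SE)) and Abcg8 from 17.6, 23.5 and 31.3 CPM to 62.7, 53.2 and 72 CPM (log2 1.38 ± 0.19 (SE)). Of 17 tested transporters of bile acids and organic anions 3 rose and 1 fell. Slco1a4, an uptake carrier of organic anions, rose from 13.5, 21 and 26.3 CPM to 107, 38.6 and 47.7 CPM (log2 1.52 ± 0.37 (SE)), highest in ZT12A. Abcb11, the bile salt export pump, fell from 283, 379 and 251 CPM to 189, 198 and 141 CPM (log2 -0.79 ± 0.17 (SE)), and the uptake carrier gene Slc10a1 was not called (log2 0.41 ± 0.17). Cyp8b1 and Abcb11 were lost without the pairing (edgeR adjusted p = 0.20 to 0.30) and without a B or C library (edgeR adjusted p = 0.081 to 0.14 for B and 0.34 to 0.36 for C).

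**Figure D3:**
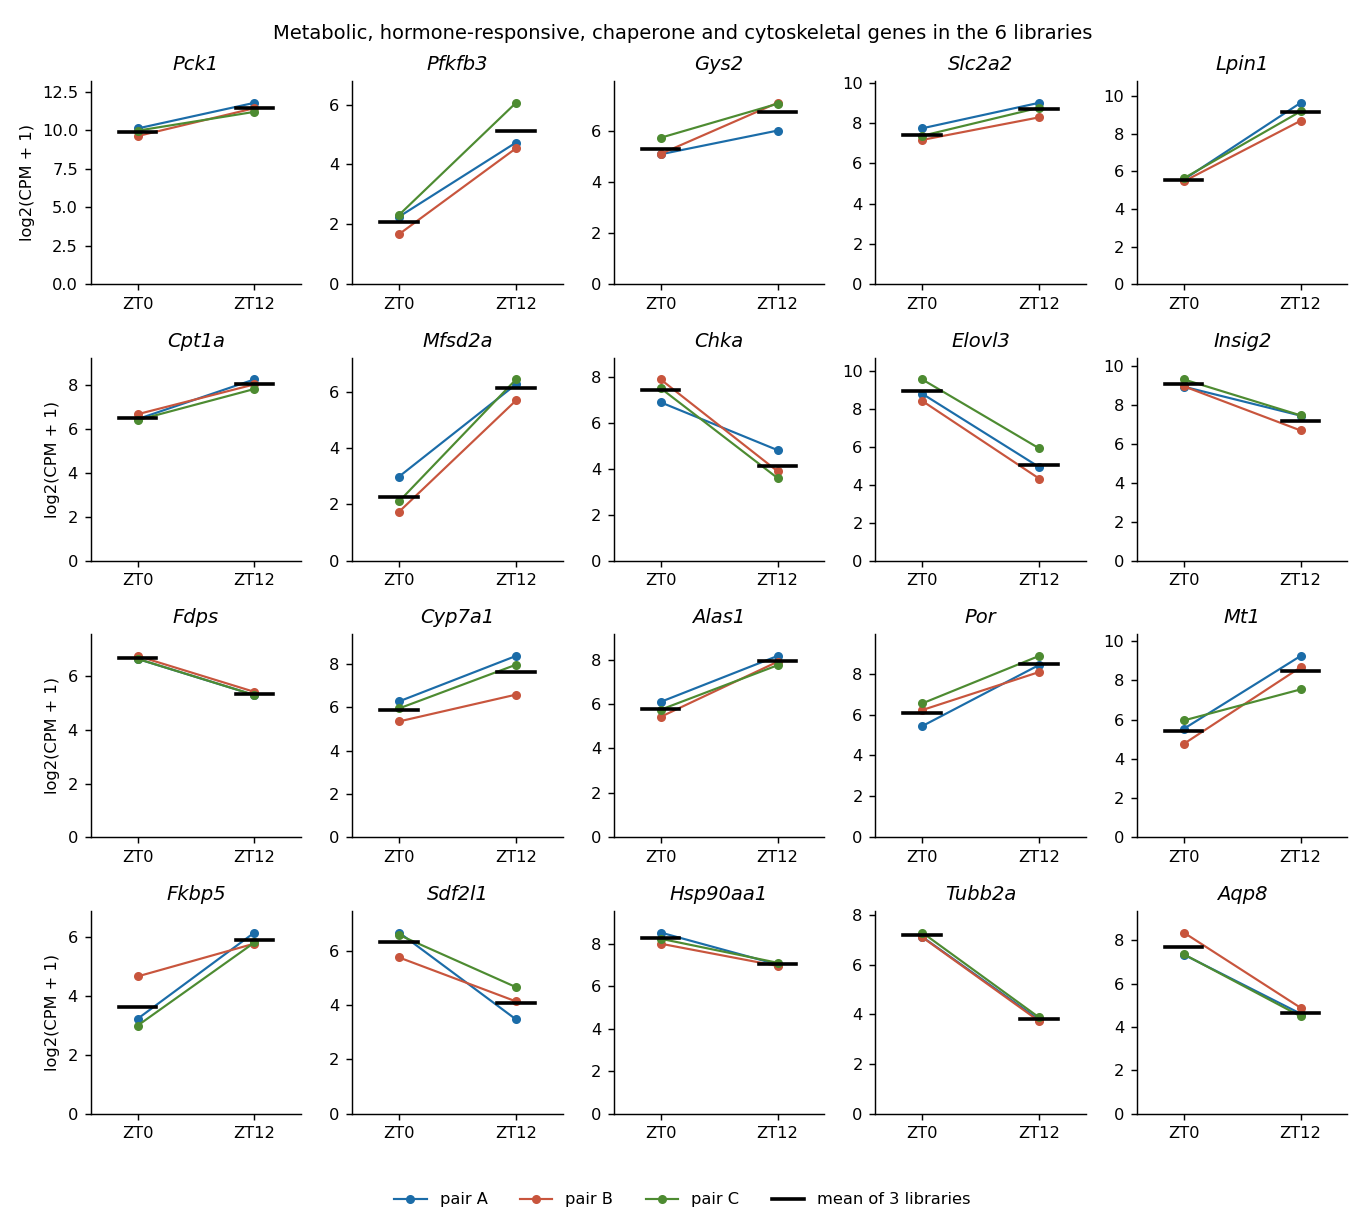
Level of 20 metabolic, hormone-responsive, chaperone and cytoskeletal genes in each library as log2(CPM + 1), drawn as in the plot of clock genes: points are libraries, coloured lines join the same letter, and black bars are means of 3 libraries. Lines of all 3 letters rise for 12 genes, from Pck1 to Fkbp5, and fall for Chka, Elovl3, Insig2, Fdps, Sdf2l1, Hsp90aa1, Tubb2a and Aqp8.

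Amino acid genes changed mostly at transporters. Slc7a2, a carrier of cationic amino acids, measured 91.6, 111 and 139.6 CPM at ZT0 and 418, 282 and 454 CPM at ZT12 (log2 1.74 ± 0.21 (SE), edgeR adjusted p = 0.0015). Slc38a2, a carrier of neutral amino acids, rose from 77.9, 53.1 and 100.2 CPM to 235, 135 and 265 CPM (log2 1.45 ± 0.17 (SE), edgeR adjusted p = 0.0014). Slc38a3, which moves glutamine, rose (log2 1.0 ± 0.20 (SE)), and Slc1a2, a glutamate carrier of pericentral cells, was 17.8, 13.5 and 113 CPM and 129, 46.5 and 204 CPM (log2 1.77 ± 0.32 (SE), edgeR adjusted p = 0.013). Both C libraries were the highest of their time for Slc1a2, so that the groups overlapped although every pair rose. Cps1, Ass1 and Arg1 of the urea cycle were not called (log2 -0.02 ± 0.25, -0.28 ± 0.18 and 0.12 ± 0.19). Slc38a3 and Slc1a2 were lost without the pairing (edgeR adjusted p = 0.17 to 0.49), and Slc38a3 without either C library (edgeR adjusted p = 0.27 to 0.28).

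Few enzymes of amino acid use were called, where 2.37% of all genes tested rose and 2.36% fell. Of 42 genes of amino acid breakdown 2 rose and 1 fell: besides Sds, Gch1, which starts synthesis of the cofactor tetrahydrobiopterin, rose (log2 0.90 ± 0.18 (SE)), and Gldc, of the glycine cleavage system, fell (log2 -0.90 ± 0.17 (SE)). The methionine cycle genes Mat1a and Bhmt were not called (log2 0.96 ± 0.26 and -0.54 ± 0.24). Gdf15, a stress hormone gene often counted with targets of the factor ATF4, fell from 21.4, 20.9 and 25.6 CPM to 8.08, 5.71 and 7.51 CPM (log2 -1.72 ± 0.22 (SE), edgeR adjusted p = 0.0023), while Atf4 was not called (log2 -0.53 ± 0.17). Gch1 and Gldc were lost without the pairing (edgeR adjusted p = 0.09 to 0.12) and without either C library (edgeR adjusted p = 0.12 to 0.16), and Gch1 without either B library (edgeR adjusted p = 0.074 to 0.079).

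Chaperones of the endoplasmic reticulum (ER) were mostly lower at ZT12 where called. Of 33 tested genes of ER folding and the unfolded protein response, 7 fell and 1 rose, and the median was log2 -0.33. Sdf2l1, a partner of the chaperone BiP, measured 101, 52.9 and 94.6 CPM at ZT0 and 10.1, 16.6 and 24.3 CPM at ZT12 (log2 -2.17 ± 0.27 (SE), edgeR adjusted p = 0.0021). Derl3, of ER-associated degradation, fell from 6.54, 8.87 and 6.62 CPM to 1.35, 2.93 and 1.77 CPM (log2 -1.76 ± 0.32 (SE)). The disulfide isomerase genes Pdia3, Pdia6 and Pdia4 fell (log2 -1.03 ± 0.18 (SE), log2 -0.92 ± 0.19 (SE) and log2 -0.80 ± 0.17 (SE)), as did Calr, for the lectin chaperone calreticulin (log2 -0.77 ± 0.18 (SE)). Hyou1, a co-chaperone gene, fell in every pair (log2 -1.14 ± 0.27 (SE)), from 34.5, 20.5 and 169 CPM to 10.1, 16.3 and 58.7 CPM, with the C libraries highest at both times and overlapping groups. Herpud1, also of ER-associated degradation, rose (log2 0.96 ± 0.22 (SE)), and Hspa5, which encodes BiP, was not called (log2 -0.57 ± 0.20). The pairing mattered here, since Hyou1, Pdia6, Pdia4, Calr and Herpud1 were lost without it (edgeR adjusted p = 0.26 to 0.57). Without either C library Sdf2l1 stayed called and Derl3, Pdia3, Pdia6, Pdia4, Calr, Hyou1 and Herpud1 were lost (edgeR adjusted p = 0.068 to 0.42), and without either B library Calr and Herpud1 were (edgeR adjusted p = 0.073 to 0.16).

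Heat shock proteins of the cytosol and mitochondria were lower for 5 of 32 tested genes and higher for 2. Hspb1, a small heat shock protein, measured 15.3, 15.9 and 28.5 CPM at ZT0 and 4.04, 4.04 and 6.18 CPM at ZT12 (log2 -2.04 ± 0.23 (SE), edgeR adjusted p = 0.0014). Hsp90aa1, the inducible form of HSP90, fell from 369, 256 and 301 CPM to 129, 124 and 137 CPM (log2 -1.23 ± 0.18 (SE), edgeR adjusted p = 0.0046), and at ZT18 its mean was 474 CPM. Hspa4l, an HSP70 relative, and Hspe1, of the mitochondrial chaperonin, fell less (log2 -0.96 ± 0.19 (SE) and log2 -0.95 ± 0.23 (SE)). Fkbp4, a co-chaperone of steroid receptors, also fell (log2 -0.72 ± 0.17 (SE)), whereas its relative Fkbp5, given above, rose. Dnajb6 rose (log2 0.82 ± 0.17 (SE)). Hspa8 and Hspd1 were not called (log2 -0.03 ± 0.19 and -0.10 ± 0.18). Hspe1, Fkbp4 and Dnajb6 were lost without the pairing (edgeR adjusted p = 0.15 to 0.21), Hsp90aa1, Hspa4l, Hspe1, Fkbp4 and Dnajb6 without either C library (edgeR adjusted p = 0.066 to 0.33), and Fkbp4 also without ZT12B (edgeR adjusted p = 0.054).

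Tubulin genes, for the subunits of microtubules, fell where called: 5 of 14 tested genes of tubulins and their folding factors, with 0 higher and a median of log2 -0.49. Tubb2a measured 138, 137 and 156 CPM at ZT0 and 12.8, 12.3 and 13.7 CPM at ZT12, 11.1-fold lower (edgeR adjusted p = 1.8e-05). Tuba4a fell from 135, 163 and 162 CPM to 58.6, 55.6 and 69.8 CPM (log2 -1.33 ± 0.17 (SE), edgeR adjusted p = 0.0026), and Tubb5 from 69.6, 87.2 and 106 CPM to 29, 42.6 and 42 CPM (log2 -1.20 ± 0.17 (SE)). Tubb4b and Tuba1c fell in every pair (log2 -1.28 ± 0.18 (SE) and log2 -0.90 ± 0.18 (SE)), with C libraries highest at both times. Tuba1b was not called (log2 -0.48 ± 0.22). The actin gene Actb was not called either (log2 -0.48 ± 0.19). Tubb4b and Tuba1c were lost without the pairing (edgeR adjusted p = 0.084 to 0.35), and Tubb5 and Tuba1c without either C library (edgeR adjusted p = 0.077 to 0.23).

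Alas1 and Por, which supply haem and electrons to cytochrome P450 enzymes, rose, and few P450 genes did. Alas1, the rate-limiting enzyme of haem synthesis and the single call among 16 haem genes, measured 67.4, 41.9 and 52.6 CPM at ZT0 and 286, 239 and 214 CPM at ZT12 (log2 2.21 ± 0.18 (SE), edgeR adjusted p = 0.0002). Por, the reductase that all microsomal P450 enzymes use, rose from 42.2, 73.5 and 92.3 CPM to 343, 269.5 and 466 CPM (log2 2.40 ± 0.23 (SE), edgeR adjusted p = 0.00052). Both had no overlap between the times. Of 39 tested P450 genes and their regulators 3 rose, Por among them, and 1 fell. Cyp2a5 was 63.8, 51.7 and 222 CPM at ZT0 and 232, 135 and 603 CPM at ZT12 (log2 1.56 ± 0.18 (SE), edgeR adjusted p = 0.0014), rising in each pair with the C libraries highest. Its near copy Cyp2a4 was called too (log2 1.64 ± 0.32 (SE)) at low levels except in the B libraries, and reads shared by the pair of genes may have been assigned to either. Cyp2c70 fell (log2 -0.89 ± 0.22 (SE)), and Cyp3a11 and Cyp2e1 were not called (log2 -0.18 ± 0.21 and 0.44 ± 0.24). Cyp2a5, Cyp2a4 and Cyp2c70 were lost without the pairing (edgeR adjusted p = 0.23 to 0.46), Cyp2c70 without either C library (edgeR adjusted p = 0.19), and Cyp2a4 and Cyp2c70 without either B library (edgeR adjusted p = 0.19 to 0.47). Of 46 genes of phase II conjugation edgeR called 0, and DESeq2 called 0. At an unadjusted p under 0.05 by edgeR, 5 were higher and 4 lower, where 9.28% and 9.44% of all genes were.

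Of 24 tested genes of NAD synthesis 2 rose and 0 fell, and of 32 tested mitochondrial carriers 4 rose and 0 fell. Over all genes tested 2.37% rose and 2.36% fell. Nampt, the rate-limiting step of NAD salvage, measured 61.6, 52.3 and 46.3 CPM at ZT0 and 234, 159 and 152 CPM at ZT12 (log2 1.74 ± 0.17 (SE), edgeR adjusted p = 0.00052), and Nmrk1, a nicotinamide riboside kinase, rose from 19.6, 12.9 and 7.94 CPM to 39.1, 28.7 and 24.7 CPM (log2 1.24 ± 0.20 (SE)). Slc25a51, which carries NAD into mitochondria, rose (log2 1.06 ± 0.17 (SE)). Slc25a47, a liver carrier, Slc25a10, for dicarboxylates, and Slc25a32, for folate, rose as well (log2 0.91 ± 0.19 (SE), log2 0.89 ± 0.17 (SE) and log2 1.33 ± 0.32 (SE)). All 4 carriers and Nmrk1 were lost without the pairing (edgeR adjusted p = 0.081 to 0.22) and without either C library (edgeR adjusted p = 0.073 to 0.35).

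Regulators of metabolism and signalling gave isolated calls, where 2.37% of all genes tested rose and 2.36% fell. Of 35 tested nuclear receptor and lineage factor genes 4 rose and 1 fell. Ppard, a lipid-sensing receptor gene, fell from 16.8, 22.3 and 18.5 CPM to 6.06, 4.6 and 2.65 CPM (log2 -2.20 ± 0.27 (SE), edgeR adjusted p = 0.0019). Esrra and Ppargc1b, partners in control of mitochondrial genes, rose (log2 0.92 ± 0.18 (SE) and log2 1.36 ± 0.32 (SE)), Ppargc1b with overlapping groups. Il6ra, the interleukin 6 receptor gene, rose from 20.4, 22.9 and 39.2 CPM to 88.9, 75.5 and 91 CPM (log2 1.67 ± 0.20 (SE), edgeR adjusted p = 0.0019), the single call among 29 acute phase genes. Among cell cycle genes Ccnd1, cyclin D1, rose (log2 1.63 ± 0.31 (SE)) and Ccng2 fell (log2 -1.13 ± 0.24 (SE)), and of 36 autophagy genes Bnip3 and Ulk1 rose (log2 1.18 ± 0.20 (SE) and log2 0.85 ± 0.17 (SE)). Esrra, Ppargc1b, Ccnd1, Ccng2 and Ulk1 were lost without the pairing (edgeR adjusted p = 0.052 to 0.17), and these genes and Bnip3 without either C library (edgeR adjusted p = 0.078 to 0.36). Ppargc1b and Ccng2 were lost without either B library (edgeR adjusted p = 0.067 to 0.086), and Esrra without ZT0B (edgeR adjusted p = 0.053).

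Some of the largest falls lay outside the gene groups above, and 292 of the 421 called genes stood in none of the 58 lists. Aqp8, a water channel of the canalicular membrane and a member of the list of water and glycerol channels, measured 162, 329 and 164 CPM at ZT0 and 23.6, 28.7 and 21.6 CPM at ZT12 (edgeR adjusted p = 5.8e-05). The genes that follow stood in no list. Cldn1, a tight junction protein, fell from 89.4, 86.2 and 71.3 CPM to 14.1, 15.3 and 10.6 CPM (log2 -2.61 ± 0.19 (SE), edgeR adjusted p = 6.9e-05). Clpx, the unfoldase of the mitochondrial ClpXP protease, which also activates ALAS, fell from 199, 232 and 246 CPM to 49.2, 31.8 and 36.2 CPM (log2 -2.57 ± 0.22 (SE), edgeR adjusted p = 0.00021). Efna1, an ephrin ligand, fell from 72.3, 99.2 and 187 CPM to 24.9, 24.9 and 19 CPM (log2 -2.28 ± 0.29 (SE)), and Rnf125, a ubiquitin ligase, from 40.2, 103 and 60.7 CPM to 20.2, 16 and 12.8 CPM (log2 -2.08 ± 0.29 (SE)). The gene named adck3 in the files, for a kinase-like protein of coenzyme Q synthesis, fell from 214, 364 and 250.3 CPM to 83.5, 60.0 and 68.5 CPM (log2 -1.96 ± 0.24 (SE)), and St5 from 34.7, 43.7 and 41 CPM to 6.74, 3.76 and 6.63 CPM (log2 -2.97 ± 0.27 (SE)). None of these 7 genes had overlapping groups, and each stayed called without the pairing and when any 1 pair lost a library.

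Sox9, a transcription factor of bile duct cells that is also expressed in hepatocytes next to the portal tract, fell from 36.7, 18.1 and 17.4 CPM to 2.69, 3.34 and 5.3 CPM (log2 -2.48 ± 0.31 (SE), edgeR adjusted p = 0.0021). It is 1 of 8 cholangiocyte markers used as a check of purity. The summed level of those markers was 28.9 to 122.5 CPM at ZT0 and 29.5 to 46.1 CPM at ZT12, scaled by library size without TMM, so the summed ranges overlapped where Sox9 did not. The part of such cells in the fall was not tested.

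Of the 58 lists 18 had no call, and they were mostly lists of housekeeping and secretory genes. Among 77 cytosolic ribosomal protein genes 76 had a negative log2 fold change, with a median of -0.23. By edgeR 0 were called and 3 passed an unadjusted p under 0.05, and DESeq2, which called 3.81% of all genes, called 0. For 76 genes of the mitochondrial ribosome the median was -0.24, with 0 calls by edgeR or DESeq2 and 10 at an unadjusted p under 0.05, all lower. Of 89 nuclear-encoded genes of the respiratory chain and ATP synthase, 81 were negative with a median of -0.40, and 22 passed an unadjusted p under 0.05 as lower, as 9.44% of all genes did (9.28% were higher at that p). After adjustment 0 did by edgeR and 0 by DESeq2, but edgeR called 23 without ZT0B and 24 without ZT12B, fits in which it called 6.43% and 6.48% of all genes. The 13 mitochondrially encoded genes had a median of -0.11, with 0 calls by either tool and 0 at an unadjusted p under 0.05. Scaled by library size alone in place of TMM, the median of all genes was 0.14 and these list medians were -0.08, -0.10, -0.26 and 0.04, so the last changed sign.

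Major urinary protein (Mup) genes, whose products carry pheromones, were the list with the lowest median, log2 -1.0 over 21 genes. Of these, 20 were negative, and 15 passed an unadjusted p under 0.05 as lower, as 9.44% of all genes did. EdgeR called 0, and DESeq2, which called 3.81% of all genes, called 2. Without either B library edgeR called 16, in fits where it called 6.43% and 6.48% of all genes. Mup20 and Mup3, the members with the highest levels, measured 21858, 3179 and 6923 and 17495, 8461 and 11791 CPM at ZT0 and 6963, 4275 and 9029 and 6532, 9820.2 and 9123 CPM at ZT12 (log2 -0.25 ± 0.39 and -0.52 ± 0.31). Mup copies are close in sequence, and how reads shared among them were counted is not given in the sources used here. Immediate early genes, the first to respond to stimuli and to tissue handling, also had a low median, log2 -0.65 over 23 tested genes, with 1 call, Zfp36l1, an RNA-decay factor (log2 -1.20 ± 0.25 (SE), edgeR adjusted p = 0.025). Egr1 was just short of it at log2 -1.42 ± 0.35 (SE) (edgeR adjusted p = 0.051). Without either A library 10 of the 23 were called, where 6.99% of all genes were in both of these fits. Zfp36l1 was lost without the pairing (edgeR adjusted p = 0.10) and without either C library (edgeR adjusted p = 0.30 to 0.31).

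The levels at ZT6 and ZT18, with 2 libraries each, place the difference within the day as a description. Those libraries have the letters A and B only, whereas the ZT0 and ZT12 means include C. Differences between letters can therefore shift a gene's position. Of the 211 genes higher at ZT12, 79 (37.4%) were nearer to their ZT12 level at ZT6 and nearer to their ZT0 level at ZT18, on the log2(CPM + 1) scale, and 32 (15.2%) had the opposite order. For 82 (38.9%) both other times were nearer to ZT0, so that ZT12 stood alone, and for 18 (8.53%) both were nearer to ZT12. The 210 genes lower at ZT12 divided in a like way, 80 (38.1%), 19 (9.05%), 87 (41.4%) and 24 (11.4%). Lpin1 was one that stood alone at ZT12, at 100.3 CPM at ZT6 and 75.8 CPM at ZT18 against a ZT12 mean ± SD of 604 ± 197 CPM (n = 3). Dbp was already at 117 CPM at ZT6, and Abcg5 at 38.7 CPM against 38.3 ± 3.7 CPM at ZT12. Gys2 stayed high into ZT18, at 103 CPM. Among the falls, Cldn1 was low at ZT12 alone, at 43.6 CPM at ZT6 and 73.5 CPM at ZT18, whereas Chka was low at ZT6 already, at 21.4 CPM, and back at 104 CPM at ZT18.

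**Figure D4:**
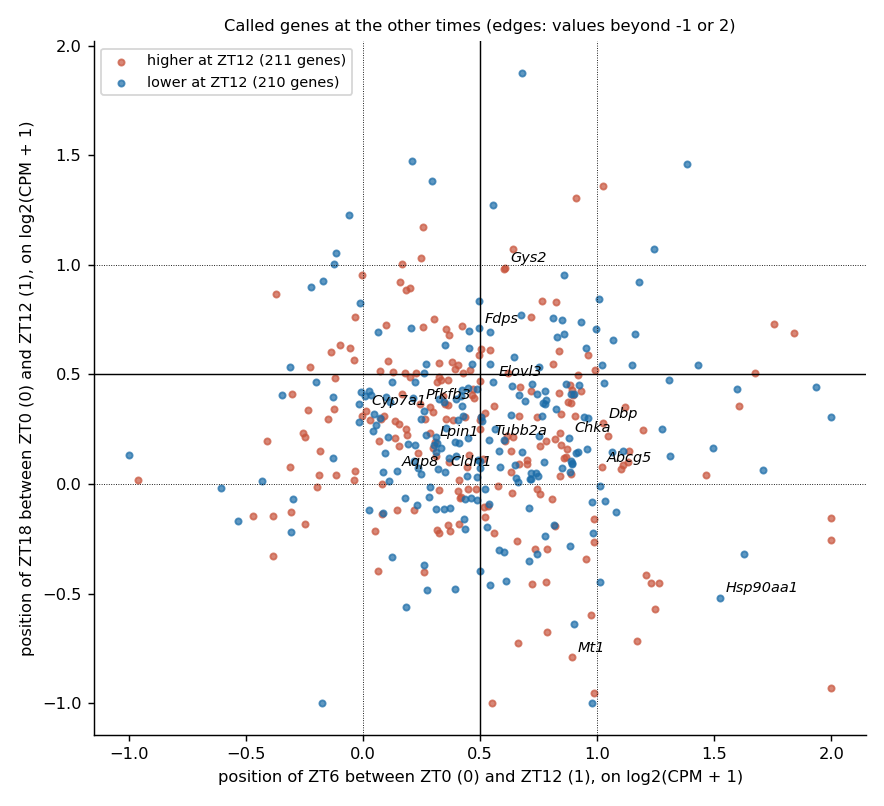
Position of the mean level at ZT6 (horizontal axis) and at ZT18 (vertical axis) between the ZT0 mean (0) and the ZT12 mean (1) on the log2(CPM + 1) scale, for the 211 genes called higher (red) and the 210 called lower (blue) at ZT12; points beyond -1 or 2 are drawn at the edge. Of the genes called higher, 79 lie in the lower right field, nearer to ZT12 at ZT6 and nearer to ZT0 at ZT18, and 82 in the lower left field.

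The position of cells between the central vein and the portal tract was used to ask whether the time difference depended on it. Cells of each library were ordered by 8 periportal and 8 pericentral landmark genes, and UMIs were summed over both outer parts of the order when it was cut into 3 equal parts. Of the 421 called genes 395 had a fitted value in both outer parts, and all 395 had the same direction in both. The outer parts are contained in the sums that chose these genes, so this is a description. The test of the zone by time term called 0 of 8905 genes by edgeR, with 420 at an unadjusted p under 0.05, and 0 by DESeq2 and by limma-voom. The lowest edgeR adjusted p was 0.050, for Pkdcc. The fall of Elovl3 was log2 -3.39 in the pericentral and -5.42 in the periportal part, and the rise of Cyp7a1 was 1.66 and 3.34. The fall of Gldc was -2.45 in the pericentral and -0.53 in the periportal part. For these 3 genes the edgeR adjusted p of the zone by time term was 0.34, which does not show that the zones behaved alike.

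**Figure D5:**
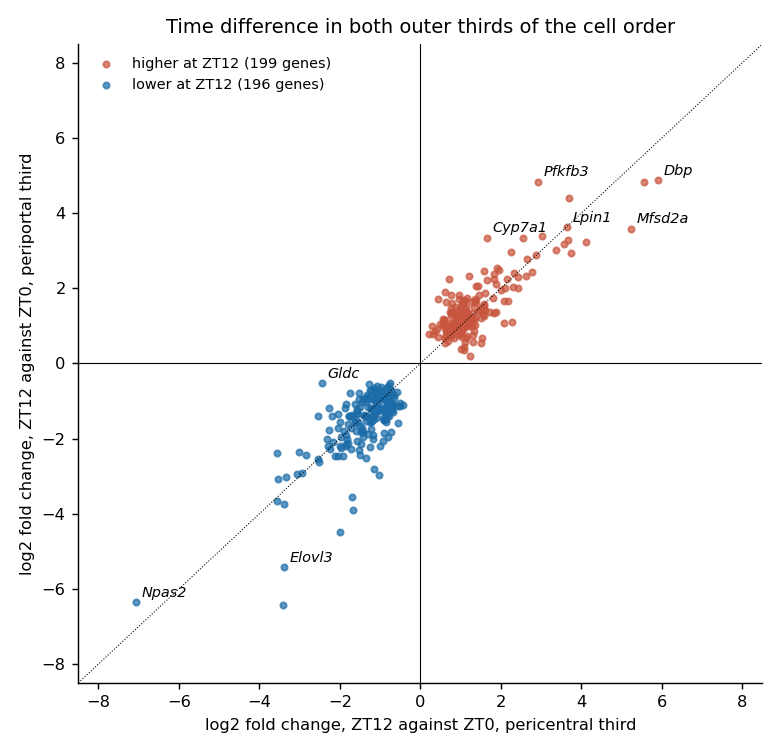
Paired log2 fold change (ZT12 over ZT0) in the pericentral part (horizontal axis) against the periportal part (vertical axis) of the cell order, for the 395 called genes with a value in both; red points are higher and blue points lower at ZT12 in the whole libraries, and the dotted line marks equal values. All 395 points lie in the lower left or upper right field, and the fitted values of Npas2 depend on the prior count because it had no UMI at ZT12.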

How the data were processed

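The deposited values are UMI counts per gene and cell for 14812 gene entries, read as raw counts because they are whole numbers, per the files themselves. The submitters' processing notes name Cell Ranger and the builds hg19 and mm10, with no version or role, and the filter on cells is not given in the sources used here. No doublet caller was run, and any earlier removal of doublets is not given either; 1 alternative dropped the 5% of cells highest in UMIs. Names matched a GENCODE M21 symbol for 14321 entries. The files number the cells of each library in place of barcodes, so barcodes shared between libraries could not be counted. Groups and letters came from the sample titles. No pair of libraries within a time was a copy (chi-square of 20.9 to 63.6 per degree of freedom).

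Counts were summed per library and tested with edgeR 4.0.16 (R 4.3.3; glmQLFit and glmQLFTest, TMM, genes averaging 3 CPM or more, Benjamini-Hochberg over all genes tested, threshold 0.05), with the letter as a pair, which leaves 2 residual degrees of freedom. Levels at ZT6 and ZT18 come from a TMM scaling of all 10 libraries. Standard errors were derived from each gene's log2 fold change and its F statistic. The letters were used as pairs because the rule for the comparison names them so and same-letter libraries correlated in their deviations. The labels do not say what a letter stands for. The members, the gene lists and the pairing were chosen with earlier results of these data known. Genes named are the 15 largest rises and 15 largest falls among called genes of at least 20 CPM, up to 6 called and 4 uncalled members of each list, and clock genes. Pkdcc, Gldc, Elovl3 and Cyp7a1 were named for zones after their values were seen, as were Abhd5, Pdia4, Calr, Fkbp4, Gpt2 and Zbtb16 where a list's limit had been reached. Zones used the outer parts of a cell order cut into 3 equal parts, with the library as a block. DESeq2 1.42.0 and limma 3.58.1 were alternatives. Both tests were also run on simulated counts built from the observed ones. The time test called 0% of the changed genes at log2 0.5, 67% at log2 1 and 100% at log2 2. The zone by time test called 0%, 20.8% and 79.3%, so a gene not called may still differ. Some genes that the rule names are not reported here.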

Additional observations from a re-analysis of the deposited data

How the results depend on the processing

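The number of genes called between ZT12 and ZT0 was 421, and 184 without the replicate block. Leaving out 1 library gave 142 to 621 with the pairing, where its partner then adds nothing to the time difference. Without the pairing it gave 86 to 171 (added after seeing the data). No filter on low genes gave 914, at least 20 CPM 261, and the pericentral part alone 244. Between 308 and 565 were called with all 10 libraries, DESeq2, DESeq2 size factors, library size alone, thinning, without the 5% of cells with the most UMIs, the periportal part alone and without mitochondrially encoded genes (the last added after seeing the data). The share of called genes higher at ZT12 was 50.1%, and 68.1% with library size alone, 56.3% at 20 CPM, 43.6% to 51.4% without 1 library and 42.1% to 60.6% when the pairing was dropped as well. For zone by time, 0 genes became 1 with library size alone, 4 with the letter as a replicate block on the zone difference, and 0 to 5 without 1 library.

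Of 342 genes that the naming rule covers, 129 were called. Of these 129, 57 were lost without the pairing, 68 without ZT0C and 68 without ZT12C, 16 with DESeq2 and 35 with all 10 libraries. Fabp1, not called at log2 -0.19 ± 0.57, changed sign to 0.77 without ZT0A (edgeR adjusted p = 0.041) and 0.76 without ZT12A (edgeR adjusted p = 0.044), and ranged down to -1.11 when a library and the pairing were both left out. In those unpaired fits Hyou1 ranged from -2.43 to 0.046 and Cyp2a4 from -0.96 to 3.79, changing sign without ZT0C and without ZT12B respectively, where neither was called. The cause was not tested. Depth limits genes near 3 CPM, since ZT12A holds 1454623 and ZT12C 1991992 UMIs.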

Other observations

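Gene groups not described above held few or no calls. Among 24 tested apolipoprotein and lipoprotein assembly genes the median was log2 -0.35, and the calls were the lipase regulators Angptl4 (higher) and Angptl8 (lower) alone, while Apoa1 and Apoe were at log2 -0.61 ± 0.34 and -0.64 ± 0.28 and were not called. Among 40 coagulation and complement genes the median was log2 -0.18. EdgeR called 0, and DESeq2, which called 3.81% of all genes, called 1. At an unadjusted p under 0.05 by edgeR, 9 were lower and 0 higher, where 9.44% and 9.28% of all genes were. Of 18 iron genes 1 was called, Hfe2, the hemojuvelin gene that sets hepcidin, which fell from 45.2, 73.6 and 61 CPM at ZT0 to 33, 32 and 28.3 CPM at ZT12 (log2 -0.95 ± 0.20 (SE), edgeR adjusted p = 0.024). Of 29 glutathione and antioxidant genes Ggt6, a gamma-glutamyl transferase, fell from 15.3, 27.4 and 21 CPM to 8.08, 10.9 and 7.95 CPM (log2 -1.26 ± 0.21 (SE), edgeR adjusted p = 0.0096). Hfe2 and Ggt6 were lost without the pairing (edgeR adjusted p = 0.059 to 0.076) and without ZT0C or ZT12C (edgeR adjusted p = 0.10 to 0.26), and Hfe2 without ZT0B or ZT12B (edgeR adjusted p = 0.051 to 0.055).

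Lists of protein synthesis sat close to all genes: 45 ribosome biogenesis genes had a median of log2 0.11 and 32 translation factors one of 0.05. In each list edgeR and DESeq2 called 0. At an unadjusted p under 0.05 by edgeR, 5 ribosome biogenesis genes were higher and 2 lower, and 1 translation factor was higher and 2 lower. Over all genes 9.28% were higher and 9.44% lower at that p. The cold-inducible RNA-binding protein genes Cirbp and Rbm3, which rise when body temperature falls, were at log2 0.65 ± 0.34 and 0.71 ± 0.20 and were not called. Among 28 insulin signalling genes Foxo1 and Foxo3 were the calls, and Srebf1 and Igfbp1 were not called (log2 0.34 ± 0.20 and -0.49 ± 0.36). Aqp11, a water channel of intracellular membranes, rose (log2 0.81 ± 0.17 (SE), edgeR adjusted p = 0.024) while Aqp8 fell, and its call was lost without the pairing (edgeR adjusted p = 0.11) and without ZT0C or ZT12C (edgeR adjusted p = 0.31 to 0.32).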
